A study of Homo sapiens with 24 samples.

Results

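The 4 genes IFITM1, IFITM2, IFITM3 and BST2 encode membrane proteins that restrict viruses, and they were found by symbol in a table of 60609 gene rows. All 4 had 1 row each, and all 4 were among the 16062 genes tested, those that reached 1 TPM or more in 3 or more libraries. TPM is transcript abundance per length, scaled to a fixed total in each library. RNA came from A549, a cell line from a human lung adenocarcinoma. Every culture was first transfected for 48 h, either with a SMARTpool of siRNAs against BOP1, a factor of ribosome assembly, or with an siRNA against firefly luciferase (FLuc), a gene the cells lack, which served as the control. Cells were then mock treated or given IFN-beta (IFN-B in the labels, called IFN here) at 1000 U/mL and harvested at 8 h or 12 h. This gave 8 groups of 3 libraries, called siFLuc or siBOP1, mock or IFN, with the time. All groups were therefore transfected, and none was untransfected. The study's title puts ribosome production and codon use during the IFN response at its centre, and the comparisons here ask how the RNA of these 4 genes followed IFN, the BOP1 siRNA and time.

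IFITM1, IFITM2 and IFITM3 are small proteins of one family, lodged in membranes, that hinder the fusion of enveloped viruses with the host cell. IFITM3 and IFITM2 act mainly in endosomes and lysosomes, which they reach through a sorting signal near the amino terminus, while IFITM1, which lacks that stretch, sits largely at the cell surface. BST2, also called tetherin, is anchored in the membrane at both ends, by a transmembrane segment and by a glycosylphosphatidylinositol (GPI) anchor, and holds budding virus particles on the cell. All are known interferon-stimulated genes: type I IFN binds its receptor, the kinases JAK1 and TYK2 become active, and the complex ISGF3 then forms and binds IFN-stimulated response elements in promoters.

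The beginnings of the coding sequences are shown first, because they hold part of what tells the IFITM genes apart. Sequence that the genes share limits how reads can be assigned to them. Sequences are from GENCODE 29 transcripts on GRCh38, from base 1 to 120 of the coding sequence, and capitals in IFITM2 and IFITM3 mark bases that differ, or have no counterpart, in the alignment of these 2 genes.
IFITM2: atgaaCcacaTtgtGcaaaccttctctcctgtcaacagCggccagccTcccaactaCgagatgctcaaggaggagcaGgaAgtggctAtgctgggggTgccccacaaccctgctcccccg
IFITM3: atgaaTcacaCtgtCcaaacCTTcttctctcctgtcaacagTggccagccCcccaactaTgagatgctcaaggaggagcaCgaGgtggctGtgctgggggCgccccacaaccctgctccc
IFITM1: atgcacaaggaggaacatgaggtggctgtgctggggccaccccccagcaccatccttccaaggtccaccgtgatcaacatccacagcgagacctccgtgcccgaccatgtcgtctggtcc
BST2: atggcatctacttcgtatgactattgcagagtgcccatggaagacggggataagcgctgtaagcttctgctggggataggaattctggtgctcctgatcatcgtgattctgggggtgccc
Over the whole coding sequence IFITM2 and IFITM3 were identical at 93.9% of 396 aligned bases, IFITM1 and IFITM3 at 88.4% of 335, and IFITM1 and IFITM2 at 84.5% of 335. IFITM1 had 125 codons, IFITM2 132, IFITM3 133 and BST2 180. Of the 31-base words of their transcripts, 36.6% in IFITM1, 44.5% in IFITM2 and 34.3% in IFITM3 also occurred in another gene, against 0.0% in BST2. With words of 75 bases these shares were 29.9%, 26.4%, 7.5% and 0.0%. IFITM1 and IFITM2 had 289 words of 75 bases in common, IFITM1 and IFITM3 67, and IFITM2 and IFITM3 64. How reads that fit more than 1 gene were assigned is not given in the sources used here, so the separate levels of the 3 IFITM genes are uncertain to that extent, and their sum is given beside them.

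The share of codons ending in G or C was 77.6% in IFITM1, 84.9% in IFITM2, 84.2% in IFITM3 and 71.7% in BST2, against a median of 58.8% over 12640 tested genes with a value. These are the 84.1st, 95.2nd, 94.5th and 72.5th percentiles of those genes, as a description of the sequences.

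In GENCODE 29 on GRCh38 the IFITM genes lie together on chromosome 11, IFITM2 at chr11:307631-315272 and IFITM1 at chr11:313506-315272 on the plus strand, and IFITM3 at chr11:319669-327537 on the minus strand. In that annotation the span of IFITM2 includes that of IFITM1. Transcripts of these 2 genes may thus share genomic bases, and how many of their common words arise that way was not counted. BST2 lies at chr19:17402939-17405648 on the minus strand. The promoters are shown because all 4 RNAs moved together under IFN. RefSeq entries (GRCh38.p14) matched 3 of the 4 symbols, IFITM1, IFITM3 and BST2. Each line runs from 180 bases before the start of transcription to 20 bases from it, and capitals mark matches to GAAANNGAAA, the core of the IFN-stimulated response element. The windows are chr11:313860-314059 on the plus strand for IFITM1, chr11:320841-321040 on the minus strand for IFITM3 and chr19:17405611-17405810 on the minus strand for BST2.
IFITM1: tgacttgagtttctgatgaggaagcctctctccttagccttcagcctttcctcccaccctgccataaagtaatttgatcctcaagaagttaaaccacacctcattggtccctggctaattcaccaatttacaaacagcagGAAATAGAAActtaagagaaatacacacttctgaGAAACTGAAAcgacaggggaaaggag
IFITM3: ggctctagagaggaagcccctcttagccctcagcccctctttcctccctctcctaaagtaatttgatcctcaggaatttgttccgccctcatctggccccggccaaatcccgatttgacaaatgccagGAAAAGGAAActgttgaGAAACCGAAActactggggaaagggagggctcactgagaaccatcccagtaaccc
BST2: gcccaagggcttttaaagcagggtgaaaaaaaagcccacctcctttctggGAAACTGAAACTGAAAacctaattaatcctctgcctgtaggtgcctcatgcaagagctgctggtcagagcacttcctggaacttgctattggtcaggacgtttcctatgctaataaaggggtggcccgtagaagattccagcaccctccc
Each of the 3 promoters held 2 matches. In IFITM1 they covered bases -40 to -31 and -6 to 4 from the start (base 1 being the first transcribed base), in IFITM3 -52 to -43 and -35 to -26, and in BST2 -130 to -121 and -124 to -115, which overlap. Searched on both strands in windows of 300 bases, 3.574% of 35116 RefSeq promoters held GAAANNGAAA. The IFITM1 and IFITM3 windows were identical at 73.1% of 271 aligned bases. A match describes the letters and is not evidence of binding.

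BOP1 itself checked the knockdown, and its siBOP1 and siFLuc values did not overlap under either treatment. It lay at 13.7 to 19.5 TPM against 51.9 to 78.8 TPM in mock cells and at 10.0 to 17.1 TPM against 32.4 to 64.4 TPM under IFN (limma log2 difference over the 4 treatment and time pairs -1.84 ± 0.09 SE, adjusted p = 2.04e-11). The cells carried epithelial keratins, with KRT8 between 2086 and 3803 TPM and KRT18 between 1785 and 2862 TPM, and EPCAM was low at 1.92 to 5.48 TPM. The leukocyte and plasmacytoid dendritic cell markers CD3E, CLEC4C and LILRA4 were listed at 0 in all 24 libraries and PTPRC did not exceed 0.021 TPM, whereas CD14, of the same marker list, had 1.81 to 5.26 TPM. Of the fibroblast markers COL1A1 had 5.37 to 19.3 TPM, whereas COL1A2, DCN and PDGFRA did not exceed 0.084, 0.334 and 0.37 TPM. The deposited columns are numbered 1, 2 and 4, and the libraries numbered 4 stood apart at 12 h: pairs with them had a Pearson r of 0.961 to 0.977, against 0.985 to 0.988 for pairs of libraries 1 and 2 (8 h: 0.978 to 0.982 against 0.981 to 0.986). Values below are listed in the order 1, 2, 4, with results also given without the libraries numbered 4 where that changes a call. Because each TPM column sums to 1000000, levels are shares of the measured RNA. In such bulk samples, fewer cells expressing a gene and less RNA per cell cannot be told apart.

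All 4 genes rose with IFN in all 4 combinations of siRNA and time, in each of them with every IFN library above every mock library. How many of all tested genes were separated in this way was not counted, so this separation, here and below, describes the values only. IFITM1 went from at most 7.94 TPM in mock libraries to at least 274 TPM, BST2 from at most 1.67 to at least 64.4 TPM, IFITM3 from at most 46.2 to at least 526 TPM, and IFITM2, already the most abundant of the 4 in mock cells, from at most 113 to at least 462 TPM. Tests were run on log2(TPM + 1), where the pseudocount shrinks the change of genes near 1 TPM such as BST2 and IFITM1. A gene was called when its limma p, adjusted by Benjamini-Hochberg over all 16062 genes, was under 0.05.

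IFITM1, the form found mostly at the cell surface, had 1.11, 3.51 and 1.24 TPM in siFLuc mock cells at 8 h and 357, 349 and 274 TPM with IFN. At 12 h it had 1.81, 5.06 and 1.07 TPM in mock cells and 586, 728 and 326 TPM with IFN. Every control library was thus under 6 TPM without IFN, and the libraries numbered 4 were the lowest of the IFN groups. In siBOP1 cells the mock values were 5.83, 7.51 and 3.91 TPM at 8 h, and 536, 613 and 405 TPM followed IFN. At 12 h siBOP1 cells had 4.49, 7.94 and 3.48 TPM in mock and 834, 895 and 559 TPM with IFN. The groups did not overlap in any of these pairs. The ratio of mean TPM, IFN to mock, was 167 (8 h) and 206 (12 h) with the control siRNA, and 90.1 and 144 with the BOP1 siRNA. On the log2 scale the limma differences were 6.87 and 7.31 with the control siRNA, then 6.28 and 6.95 with the BOP1 siRNA (each ± 0.37 SE, largest adjusted p = 2.8e-11).

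BST2 was the lowest of the 4 at rest, with 0.772, 0.724 and 0.452 TPM in siFLuc mock cells at 8 h, and 87.5, 73.2 and 64.4 TPM with IFN. At 12 h its siFLuc mock libraries had 0.508, 1.37 and 0.235 TPM and its IFN libraries 117, 131 and 74.6 TPM. All 6 control libraries without IFN were thus under 2 TPM, where tetherin RNA was close to the limit of the filter. In siBOP1 cells BST2 had 1.37, 0.72 and 0.37 TPM in mock and 95.5, 109 and 86.1 TPM with IFN at 8 h. At 12 h it had 0.4, 1.67 and 0.758 TPM in siBOP1 mock cells and 139, 145 and 103 TPM with IFN. No mock and IFN groups overlapped. Ratios of mean TPM at 8 h and 12 h were 116 and 153 with the control siRNA, then 118 and 137 with the BOP1 siRNA. The limma differences for BST2, in the same order, were 5.52, 6.01, 5.78 and 6.10 (each ± 0.26 SE, largest adjusted p = 5.97e-13).

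IFITM3, which acts on viruses taken up into endosomes, had 38.1, 38.5 and 28.2 TPM in siFLuc mock cells at 8 h and 736, 613 and 526 TPM with IFN. At 12 h the siFLuc libraries had 33.1, 40.2 and 31.8 TPM in mock and 894, 972 and 623 TPM with IFN. It became the most abundant of the 4 RNAs in every IFN library. In siBOP1 cells IFITM3 had 45.0, 40.4 and 43.3 TPM in mock and 814, 875 and 632 TPM with IFN at 8 h. At 12 h siBOP1 cells had 40.7, 46.2 and 41.6 TPM in mock and 1027, 1074 and 814 TPM with IFN. Mock and IFN groups were far apart in all 4 pairs, by ratios of mean TPM of 17.9 (8 h) and 23.7 (12 h) with the control siRNA and of 18.0 and 22.7 with the BOP1 siRNA. The limma differences, in the same order, were 4.12, 4.51, 4.13 and 4.46 (each ± 0.17 SE, largest adjusted p = 3.66e-14).

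IFITM2, the close relative of IFITM3 in the same compartments, already had 82.2, 90.0 and 79.1 TPM in siFLuc mock cells at 8 h, against 544, 471 and 462 TPM with IFN. At 12 h the siFLuc values were 83.0, 98.8 and 81.4 TPM in mock and 691, 789 and 490.0 TPM with IFN. Its ratios of mean TPM, 5.88 and 7.49, were the smallest of the 4 genes. In siBOP1 cells IFITM2 had 97.3, 113 and 101 TPM in mock and 627, 674 and 510 TPM with IFN at 8 h. At 12 h it had 98.6, 106 and 90.5 TPM in siBOP1 mock cells and 835, 851 and 658 TPM with IFN. The groups again did not overlap, with ratios of 5.81 and 7.93. The limma differences at 8 h and 12 h were 2.54 and 2.87 with the control siRNA, then 2.52 and 2.97 with the BOP1 siRNA (each ± 0.15 SE, largest adjusted p = 1.7e-11).

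**Figure D1:**
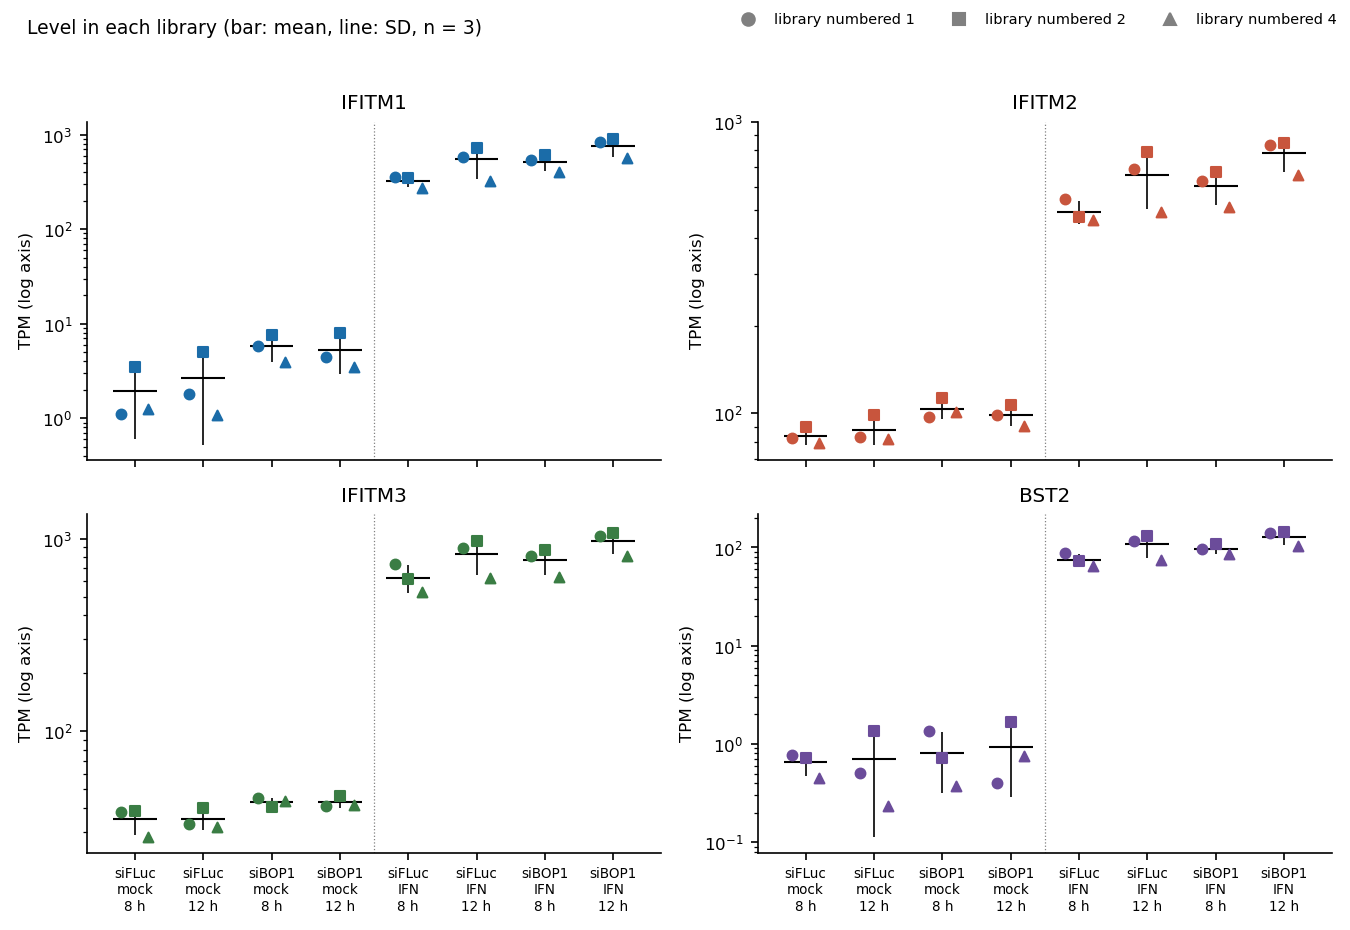
TPM of IFITM1, IFITM2, IFITM3 and BST2 in each library (log axis), by group, with the marker shape giving the library number, the bar the mean and the line the SD of 3 libraries. All 12 IFN libraries lie above all 12 mock libraries for each gene, and the triangles (number 4) are the lowest of every IFN group.

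The 4 of 4 genes called higher stand against 5.77% of all tested genes in siFLuc cells at 8 h, 7.06% in siFLuc cells at 12 h, 5.99% in siBOP1 cells at 8 h and 7.17% in siBOP1 cells at 12 h. Averaged over the 4 pairs, the IFN difference was 6.85 ± 0.19 for IFITM1, 5.85 ± 0.13 for BST2, 4.31 ± 0.08 for IFITM3 and 2.72 ± 0.07 for IFITM2 (limma estimate ± SE, adjusted p from 1.76e-20 to 7.62e-18), all 4 called, against 13% of tested genes called higher. By size of that rise they ranked 10th, 18th, 49th and 121st among 16062 genes. The median difference over all tested genes was -0.10. With TPM rescaled by the median of ratios, the genes called over the 4 pairs went from 2084 higher and 4652 lower to 2946 higher and 2965 lower, while the 4 genes stayed called higher under both this and quantile scaling. In the single pairs it moved them from 927 higher and 814 lower to 1141 and 512 (siFLuc, 8 h), from 1134 and 1032 to 1373 and 803 (siFLuc, 12 h), from 962 and 1464 to 1324 and 698 (siBOP1, 8 h) and from 1152 and 1218 to 1421 and 856 (siBOP1, 12 h). The p-values here measure the spread between libraries of a group, which the labels do not state to be separate cultures and which may be technical.

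The summed level of the 3 IFITM genes was also taken as 1 value. It is not free of how shared reads were split, since TPM is per transcript length and the transcripts differ in length. It averaged 121 ± 11.8 TPM (SD, n = 3) in siFLuc mock cells at 8 h and 1444 ± 187 TPM with IFN, and 125 ± 16.2 TPM and 2034 ± 538 TPM at 12 h. In siBOP1 cells it averaged 153 ± 7.54 TPM in mock and 1895 ± 316 TPM with IFN at 8 h, and 147 ± 12.8 TPM and 2516 ± 424 TPM at 12 h. Tested as 1 row with limma, the sum rose by 3.81 ± 0.08 over the 4 pairs (adjusted p = 1.86e-19).

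Levels of different genes are compared here on the TPM scale, which is per transcript length. In all 12 mock libraries the order was IFITM2, IFITM3, IFITM1, BST2. Under IFN it was IFITM3, IFITM2, IFITM1, BST2 in 11 of 12 libraries, and in the remaining one IFITM1 stood above IFITM2. In mock cells IFITM2, at 79.1 to 113 TPM, and IFITM3, at 28.2 to 46.2 TPM, did not overlap each other or the other 2 genes, while IFITM1 and BST2 overlapped in the siFLuc 12 h group. Among IFN groups the ranges of IFITM3 and IFITM2 overlapped in 4 of 4 groups and those of IFITM2 and IFITM1 in 3 of 4, so the group ranges alone did not separate these neighbours, although IFITM3 was above IFITM2 within each of the 12 IFN libraries. BST2 stayed below the other 3 genes in every library.

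The genes did not respond to the same degree, as the difference between 2 genes within a library shows, a measure that does not depend on the scaling of the library beyond the pseudocount. IFITM1 minus IFITM2 was -5.31 to -3.59 in log2(TPM + 1) in mock libraries and -0.75 to 0.07 in IFN libraries, a shift of 4.13. IFITM2 minus IFITM3 went from 1.09 to 1.46 in mock libraries to -0.44 to -0.19 with IFN, a shift of -1.58, above 0 in every mock library and below 0 in every IFN library. The shift was 2.55 for IFITM1 minus IFITM3, -3.13 for IFITM2 minus BST2 and -1.55 for IFITM3 minus BST2. An exact two-sided permutation test, with treatment permuted within siRNA and time (160000 arrangements), gave each of these 5 pairs an adjusted p = 1.5e-05 over the 6 pairs compared, from the smallest p the design allows, 1.25e-05. IFITM1 minus BST2 shifted by 1.00 (adjusted p = 2.5e-05 by the exact permutation test), but by 0.27 with a pseudocount of 0.1 in place of 1 (adjusted p = 0.191 by the same exact test), so the order of the rises of IFITM1 and BST2 rests on how values near 1 TPM are treated.

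**Figure D2:**
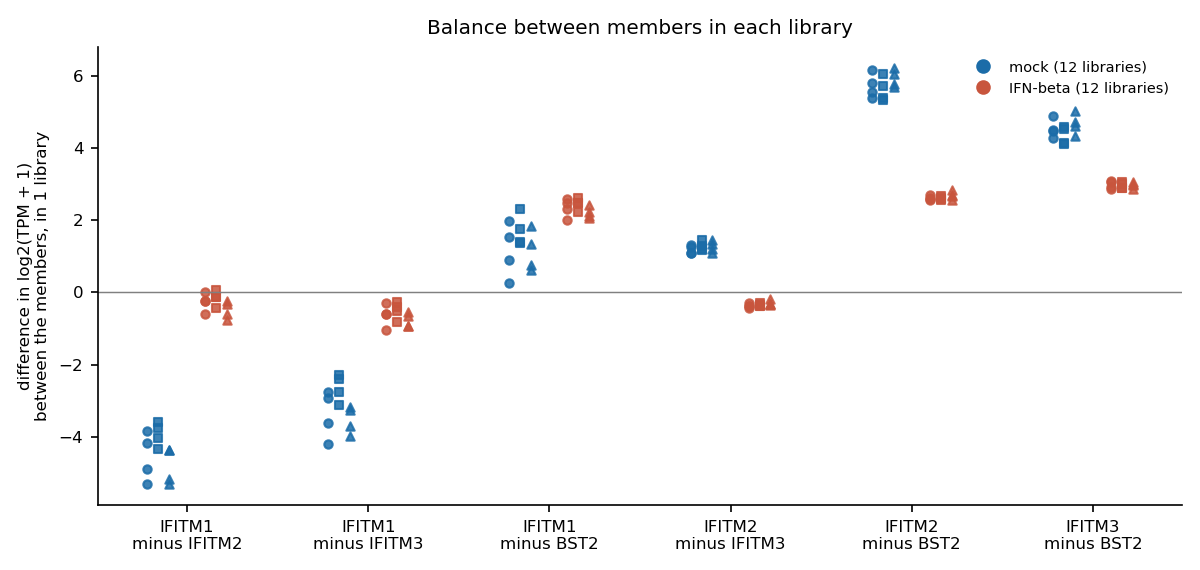
Difference in log2(TPM + 1) between each pair of the 4 genes within a library, for 12 mock (blue) and 12 IFN (orange) libraries, with marker shapes for the library numbers 1 (circle), 2 (square) and 4 (triangle). IFITM2 minus IFITM3 lies above 0 in every mock library and below 0 in every IFN library, and IFITM1 draws near IFITM2 and IFITM3 with IFN.

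With the BOP1 siRNA the 3 IFITM genes were somewhat higher and BST2 was not called. Without a block for library number, no single combination of treatment and time gave a call for any of the 4, and the average over the 4 combinations called IFITM1, IFITM2 and IFITM3 higher. IFITM1 differed by 0.83 ± 0.19 on the log2(TPM + 1) scale (limma, adjusted p = 0.00372), IFITM3 by 0.29 ± 0.08 (adjusted p = 0.0219) and IFITM2 by 0.26 ± 0.07 (adjusted p = 0.0175). These 3 of 4 genes stand against 10% of tested genes called higher, and the median over all tested genes was -0.0007. BST2 differed by 0.24 ± 0.13 (95% interval -0.04 to 0.51, adjusted p = 0.247 by limma). With the column number as a block, limma also called BST2 over the 4 combinations (adjusted p = 0.0352), and it called IFITM1 without IFN at both times (adjusted p = 0.00062 at 8 h, 0.00797 at 12 h) and with IFN at 8 h (0.0352). That fit also called more of all 16062 tested genes higher over the 4 combinations, 2537 against 1608 without the block. In mock cells at 8 h and 12 h and with IFN at 8 h it called 949, 693 and 799 higher, against 240, 145 and 200. The calls of IFITM2 and IFITM3 were not stable: IFITM2 had adjusted p = 0.0583 after median-of-ratios scaling and 0.0618 after quantile scaling, and IFITM3 had 0.055 with no filter on low values (limma throughout). The sum of the 3 IFITM rows was called higher by 0.32 ± 0.08 (limma, adjusted p = 0.0114).

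IFITM1 in mock cells at 8 h showed the largest of these differences, 3.91 to 7.51 TPM with the BOP1 siRNA against 1.11 to 3.51 TPM with the control, without overlap. The ratio of mean TPM was 2.94 and the limma difference 1.25 ± 0.37 (adjusted p = 0.095). At 12 h in mock cells, 3.48 to 7.94 TPM overlapped 1.07 to 5.06 TPM, and the difference was 0.88 (adjusted p = 0.308 by limma). With IFN, IFITM1 was 405 to 613 against 274 to 357 TPM at 8 h, without overlap, and 559 to 895 against 326 to 728 TPM at 12 h, with overlap. Those differences were 0.65 and 0.53 (limma, adjusted p = 0.486 and 0.791). For IFITM2, IFITM3 and BST2 the 12 single differences lay between 0.11 and 0.37, with adjusted p from 0.374 to 0.949 in limma. IFITM2 did not overlap between siRNAs in mock cells at 8 h, and IFITM3 did not in mock cells at 8 h and 12 h. The share of all tested genes without overlap between siRNAs was not counted, so these separations describe the values only. The 0 of 4 genes called higher stand against 1.49% of tested genes in mock cells at 8 h, 0.903% in mock cells at 12 h, 1.25% with IFN at 8 h and 0.392% with IFN at 12 h, where limma gave 2076, 2051, 2191 and 1444 genes an unadjusted p under 0.05. Median-of-ratios scaling changed the calls in mock cells at 8 h from 240 higher and 107 lower to 204 and 152. None of the 4 genes was among these calls. An unadjusted limma p under 0.05 was given to IFITM1 and IFITM2 in mock cells at 8 h and to IFITM1 alone in mock cells at 12 h. With IFN none of the 4 had one.

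Set side by side by library number, which no label says pairs them, IFITM1 was higher with the BOP1 siRNA in 12 of 12 comparisons, by 0.30 to 1.69 in log2(TPM + 1), IFITM2 in 12 of 12 by 0.11 to 0.52, and IFITM3 in 12 of 12 by 0.07 to 0.60. The share of all tested genes higher in 12 of 12 was not counted, and the genes share the same libraries. BST2 was higher in 9 of 12, from -0.11 to 0.56, and its 3 negative values were all in mock cells, between values of 0.724 TPM or less. The summed level of 6 epithelial markers of A549 also differed between the siRNAs, with 5729 to 6348 TPM in siBOP1 against 6492 to 7220 TPM in siFLuc mock cells at 8 h, and its part in these differences was not tested.

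**Figure D3:**
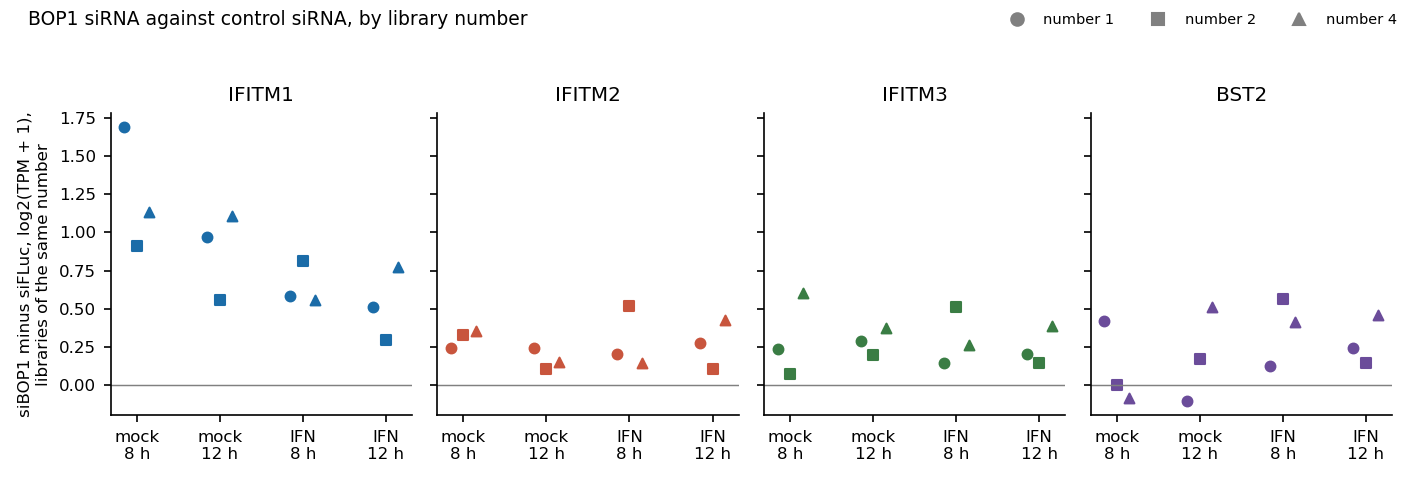
Difference in log2(TPM + 1) between siBOP1 and siFLuc libraries of the same number, by gene, treatment and time (circle 1, square 2, triangle 4). IFITM1, IFITM2 and IFITM3 are above 0 in all 12 comparisons each, and BST2 in 9 of 12.

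Whether the BOP1 siRNA altered the response to IFN was tested as an interaction, and none of the 4 genes was called at 8 h or 12 h, where limma also called 0% of all tested genes (353 and 259 with an unadjusted p under 0.05, none of the 4 among them). The interaction of IFITM1 was -0.59 at 8 h (95% interval -1.69 to 0.50) and -0.35 at 12 h (-1.45 to 0.75). For IFITM2 the intervals were -0.45 to 0.41 and -0.33 to 0.53, for IFITM3 -0.49 to 0.50 and -0.54 to 0.45, and for BST2 -0.52 to 1.03 and -0.68 to 0.87. Adjusted p was 1 for all 8 values in limma.

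Between 8 h and 12 h no gene of the 4 was called, although with IFN all 4 had higher means at 12 h. In siFLuc cells with IFN the difference, 12 h minus 8 h, was 0.67 for IFITM1, 0.39 for IFITM2, 0.40 for IFITM3 and 0.49 for BST2 (limma, adjusted p = 0.329, 0.138, 0.197 and 0.318). In siBOP1 cells with IFN it was 0.55, 0.37, 0.33 and 0.40 (limma, adjusted p = 0.472, 0.172, 0.304 and 0.453). Each of these 8 pairs of groups overlapped, and in all 24 comparisons between libraries of the same number the 12 h value was the higher, by 0.08 to 1.06. These 24 are not independent, as the 4 genes share the libraries and moved together in them (r 0.971 to 0.986 with IFN). The median difference over all tested genes was 0.092 in siFLuc and 0.0885 in siBOP1 cells. The share of genes higher in every such comparison was not counted. The 0 of 4 genes called higher stand against 2.83% of tested genes in siFLuc and 2.45% in siBOP1 cells, where limma gave 3094 and 2897 genes an unadjusted p under 0.05, IFITM2 and IFITM3 among them in siFLuc cells and IFITM2 in siBOP1 cells. In siFLuc cells the result rested on the libraries numbered 4: with libraries 1 and 2 alone IFITM2 differed by 0.54 (limma, adjusted p = 0.0144) and IFITM3 by 0.47 (adjusted p = 0.0272), and without the number 4 library of the 12 h IFN group alone IFITM2 differed by 0.59 (adjusted p = 0.0321). Libraries 1 and 2 alone gave 510 genes called higher and 276 lower of 16062 tested in siFLuc cells. Median-of-ratios scaling changed the genes called here from 455 higher and 112 lower to 332 higher and 326 lower in siFLuc cells, and from 393 higher and 82 lower to 268 higher and 325 lower in siBOP1 cells.

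In mock cells the differences between times lay between -0.13 and 0.24 for the 4 genes, none called, with 95% intervals as wide as -0.90 to 0.65 for IFITM1 in siBOP1 cells. All tested genes had 0.118% called higher in siFLuc and 0.137% in siBOP1 mock cells, and limma gave 2067 and 1549 genes an unadjusted p under 0.05, none of the 4 among them. Median-of-ratios scaling changed those calls from 19 higher and 2 lower to 20 and 12 in siFLuc cells and from 22 and 15 to 21 and 30 in siBOP1 cells. The interaction of time and IFN lay between 0.32 and 0.67 for the 4 genes, none called by limma (adjusted p = 1 for all 8), with 0.00623% of tested genes called in siFLuc cells and 0% in siBOP1 cells, and 575 and 603 at an unadjusted p under 0.05. IFITM2 in siBOP1 cells, at 0.45 (95% interval 0.02 to 0.88), was the only 1 of these 8 values with an unadjusted p under 0.05, 0.041.

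**Figure D4:**
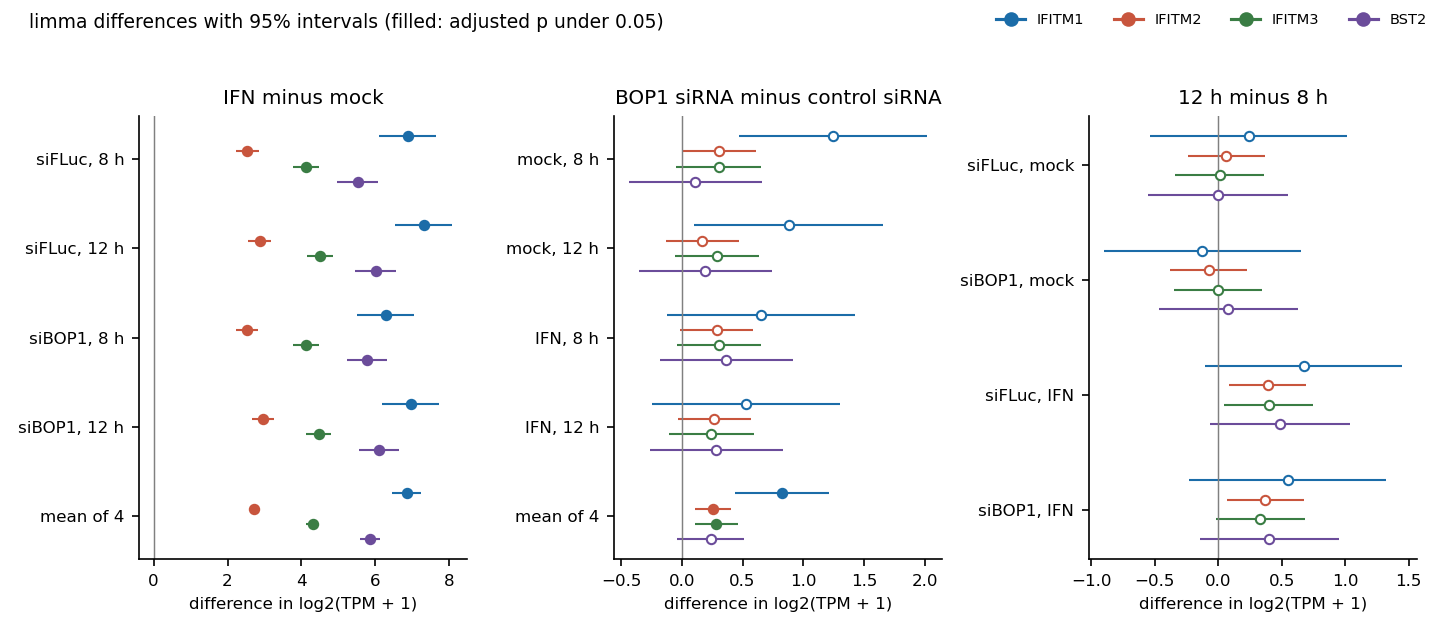
Limma differences in log2(TPM + 1) with 95% intervals for IFN against mock, siBOP1 against siFLuc and 12 h against 8 h, by gene (filled circles: adjusted p under 0.05). All IFN intervals lie above 2, the filled siRNA circles are IFITM1, IFITM2 and IFITM3 averaged over the 4 combinations, and no time difference is filled.

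Over the 24 libraries each of the 4 genes ranked other IFN-responsive genes, and one another, as most alike, by Pearson r of log2(TPM + 1) among 11486 genes with a group mean of at least 5 TPM. IFITM1 was followed by IFITM2 (0.996), IFITM3 (0.994), TYMP, a thymidine phosphorylase (0.994), PSMB9, an immunoproteasome subunit (0.994), and BST2 (0.993). IFITM2 was followed by IFITM3 (0.997), IFITM1 (0.996), HLA-C (0.996), LAP3, an aminopeptidase (0.994), and TYMP (0.994). IFITM3 was followed by BST2 (0.998), IFI6 (0.998), LAP3 (0.997) and IFITM2 (0.997), and BST2 by IFI6 (0.998), the ubiquitin-like ISG15 (0.998), IFITM3 (0.998), IFI27 (0.997) and LAP3 (0.996). All libraries share the large step between mock and IFN, which such an r mostly follows. Within the 12 IFN libraries alone r between the 4 genes was 0.971 to 0.986, and within the 12 mock libraries it was 0.950 for IFITM1 and IFITM2, 0.815 for IFITM1 and IFITM3, 0.791 for IFITM2 and IFITM3, and 0.467 to 0.629 for pairs with BST2. The 3 IFITM rows share sequence, and the libraries numbered 4 were the lowest of every IFN group for all 4 genes.

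Relatives of the IFITM genes were low or not called. Of 9 other genes of the dispanin family, 3 were tested and 0 were called over the 4 pairs of IFN and mock. Over all tested genes 13% were called higher and 29% lower, and 3 genes are too few to set apart from those shares. TMEM233 differed by -0.08, IFITM10 by -0.06 and TMEM91 by -0.01 (limma, adjusted p = 0.693, 0.757 and 0.95, none with an unadjusted p under 0.05). IFITM5, the bone-restricted member next to IFITM2, was listed at 0 in every mock library and reached 0.115 TPM with IFN. The 12 IFITM pseudogene rows did not exceed 3.23 TPM in any library, though some had higher medians with IFN. IFITM3P1 had a median of 0.431 TPM in siFLuc mock and 1.86 TPM in siFLuc IFN libraries, and 0.258 and 2.295 TPM in siBOP1 libraries. IFITM3P8, IFITM3P9 and IFITM8P were listed at 0 throughout.

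Among 18 other antiviral factors that act at membranes, 15 were tested, 10 were called higher with IFN and 3 lower, with a median of 1.95, where 13% of all tested genes were called higher and 29% lower. The largest changes were in IFI6, a mitochondrial and endoplasmic reticulum protein (6.61 ± 0.08), RSAD2, the enzyme viperin (5.68 ± 0.09), and LGALS9, galectin-9 (5.25 ± 0.09). Of 9 genes from the IFN receptor to ISGF3 and its IRF partners, 6 were called higher and 2 lower with a median of 2.76, led by IRF7 (5.94 ± 0.08) and STAT2 (3.96 ± 0.08).

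Genes whose products modify or sort the IFITM proteins lay close to all tested genes. Of 16 such genes, all tested, 0 were called higher and 6 lower, against 13% higher and 29% lower over all genes, with a median of -0.11 against -0.10. SETD7, a lysine methyltransferase, fell by 0.89 ± 0.04, ZDHHC7, a palmitoyltransferase, by 0.80 ± 0.08, and KDM1A, a demethylase, by 0.30 ± 0.04. After median-of-ratios scaling 1 of the 16 was called higher (AP2B1, an adaptor subunit, named after its value was seen) and 4 lower, these 3 included, and after quantile scaling 0 higher and 10 lower. Of 11 partners of BST2 in sorting and signalling, 10 were tested, with 2 called higher (CAV1 by 0.30 ± 0.04, RNF115 by 0.30 ± 0.09) and 3 lower, among them ATP6V1H at -0.27 ± 0.09, again near the shares of 13% and 29% over all genes. None of those 3 was called after median-of-ratios scaling, and 4 were called lower after quantile scaling. LILRA4, the receptor for BST2 on plasmacytoid dendritic cells, was listed at 0 throughout.

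BST2 needs a GPI anchor, which a set of enzymes builds and attaches. Of the 22 genes for that machinery, 2 were called higher and 5 lower with IFN, against 13% and 29% of all genes, with a median of -0.02, or 5 and 3 with a median of 0.07 after median-of-ratios scaling, and the 3 with the largest differences were PIGX (-0.37 ± 0.07), PIGW (-0.35 ± 0.10, adjusted p = 0.0597 after that scaling) and PIGM (-0.34 ± 0.08). Of 16 genes for other GPI-anchored surface proteins 14 were tested, with 3 called higher, NT5E (1.46 ± 0.10), PLAUR (1.35 ± 0.10) and CD55 (0.32 ± 0.09), and 3 lower. With the BOP1 siRNA, 8 of the 22 anchor genes were called higher and 0 lower, with a median of 0.15, and 3 of the 14 other GPI-anchored genes higher and 0 lower, against 10% higher and 6.91% lower over all tested genes. In the same comparison 5 of 15 membrane antiviral genes, 6 of 16 IFITM modifiers and 1 of 9 receptor to ISGF3 genes were called higher, and 1 of the 16 modifiers lower, to be read against the same 10% and 6.91%.

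**Figure D5:**
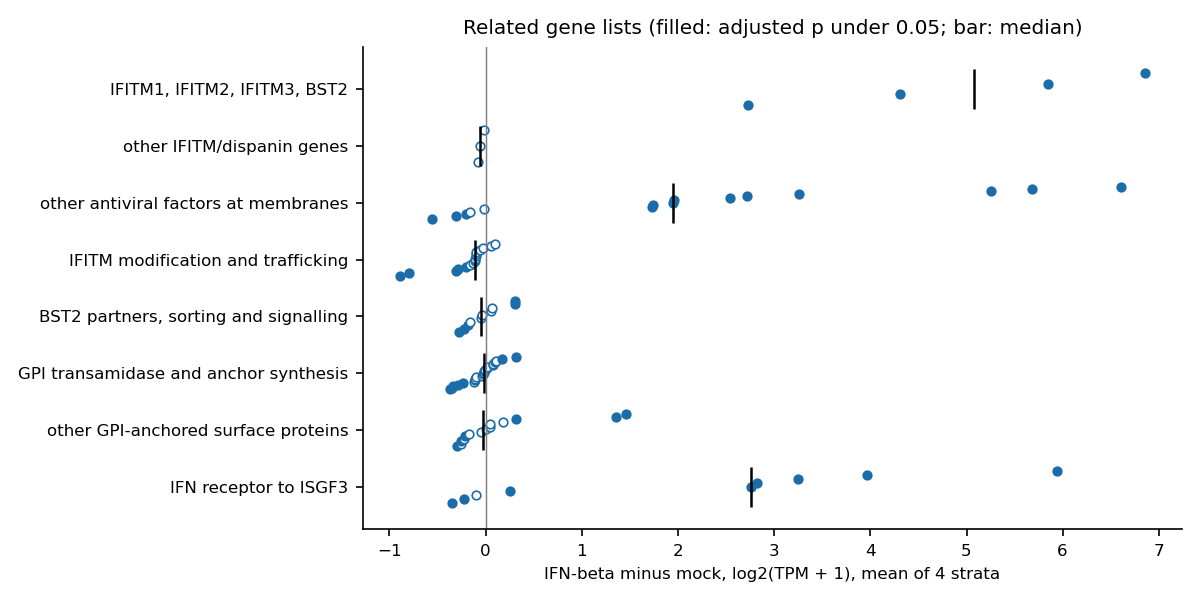
IFN minus mock in log2(TPM + 1), averaged over the 4 combinations of siRNA and time, for each tested gene of 8 lists (filled: adjusted p under 0.05, bar: median). The 4 genes described here, 10 membrane antiviral genes and 6 receptor to ISGF3 genes lie to the right, while the IFITM modifiers and the GPI anchor genes sit near 0.

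Some neighbours of the genes differed with IFN, in a comparison that called 13% of all tested genes higher and 29% lower. Whether the smaller of these differences hold under other scalings was not tested. BISPR, a long noncoding RNA on the opposite strand whose RefSeq start lies 56 bases from that of BST2, had 0 to 0.419 TPM in mock libraries and 1.60 to 7.15 TPM with IFN (limma 1.83, adjusted p = 4.16e-10). The promoter windows of BISPR and BST2 overlap by 155 of 300 bases, and the matches shown for BST2 lie beyond the start of BISPR, on its transcribed side. MVB12A, further along, differed by 0.20 (22.4 to 27.6 against 24.4 to 35.4 TPM, adjusted p = 0.00251 by limma), and CCDC194 on the other side was listed at 0 in every mock library and at 0.169 to 2.26 TPM with IFN. At the IFITM locus PGGHG rose from 3.84 to 10.1 TPM to 6.98 to 20.2 TPM (limma 0.72, adjusted p = 3.345e-06), PKP3 fell by 0.32 (adjusted p = 0.0002044), and B4GALNT4 differed by 0.26 (adjusted p = 0.2238, limma). The antisense row ENSG00000254910, which overlaps IFITM2, had 0 to 5.36 TPM in mock and 2.74 to 11.3 TPM with IFN (limma 1.26, adjusted p = 0.0001712). The libraries were made with a stranded kit, but whether strand was used in counting is not given in the sources used here, so reads of such overlapping rows may not be separated.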

How the data were processed

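Polyadenylated RNA of 24 A549 libraries was measured by RNA sequencing after a stranded library preparation. The authors deposited TPM values per gene; aligner, counter, build and annotation are not given in the sources used here. TPM keeps no depth, so depth is unknown and no counting interval is given. Columns numbered 1 and 2 (16 columns) matched labelled replicates. The 8 columns numbered 4, against labels numbered up to 3, entered the analysis only as libraries of their group.

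Symbols came from Ensembl gene IDs. Genes with at least 1 TPM in 3 libraries were tested with limma 3.58.1 (R 4.3.3) on log2(TPM + 1) values (lmFit, eBayes with an intensity trend, 1 mean per group over all 24 libraries, no block, Benjamini-Hochberg threshold 0.05). The limma fit without a block was tested on simulated data with independent noise in each library. The permutation test and the alternative settings were not. Same-numbered columns deviated together (r 0.115 to 0.508, over 0.1 in 24 of 24), but less with numbers 1 and 2 alone (-0.012 to 0.156, over 0.1 in 3 of 8). As no label carries the number 4, the fit without a block was kept, and blocked values stand beside the calls they change. Unequal responses were tested by exact permutation. Sequences were compared with Biopython 1.88.

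The 4 genes and all lists were chosen with earlier results of these data known. Named were BOP1, the 4 genes, the 5 genes most alike to each, the 3 tested genes per list with the largest IFN difference and the 3 nearest rows per side. Some items that this rule or the marker list holds are not reported here. Alternatives covered pseudocount 0.1, filters (none, mean of 5 TPM), median-of-ratios and quantile scaling, no trend, only the groups compared, number as a block, only libraries 1 and 2, summed IFITM rows, and leaving out each library.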

Additional observations from a re-analysis of the deposited data

How the results depend on the processing

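All IFN differences of the 4 genes kept direction and call in all 403 alternative values. Depth is unknown, and mock BST2 and IFITM1, near 1 TPM, are the least precise. Other calls that changed are in the results above or follow here; the cause was not tested. For BOP1 siRNA, where 0 of 4 were called singly, the column number block called 1 (IFITM1) in mock cells at 8 h, in mock cells at 12 h and with IFN at 8 h, and also BST2 over the 4 combinations (limma, adjusted p = 0.0352), and changed no other call of the 4 genes. With libraries 1 and 2 the replicate block called 1 in mock cells and 2 with IFN at 8 h, where it called 487 and 564 of 16062 tested genes higher. For 12 h against 8 h in siFLuc IFN cells, libraries 1 and 2 called 2, their replicate block 1, and leaving out 1 library 0 to 1. Over all 16062 tested genes that replicate block called 339 higher and 314 lower.

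Direction changed only among differences that were not called. For the siRNA by IFN interaction at 8 h, IFITM2 (-0.02) became 0.0458 with median-of-ratios scaling and 0.0757 with libraries 1 and 2, with or without the replicate block, and IFITM3 (0.0043) became -0.0028 with pseudocount 0.1 and -0.0088 with quantile scaling. The sum of the 3 IFITM rows, tested as 1 row, gave 0.0457 at 8 h, where IFITM1 by itself (-0.59) kept its sign in every alternative. At 12 h the sum gave 0.101, against -0.35 for IFITM1 and -0.0455 for IFITM3 by themselves, and BST2 was -0.162 with pseudocount 0.1. For 12 h against 8 h in mock siFLuc cells, IFITM2 was -0.0102 with median-of-ratios scaling, IFITM3 -0.0599 with it, -0.0658 with quantile scaling, -0.0685 with libraries 1 and 2, -0.103 with the column number block and -0.185 with the replicate block, and BST2 0.0038 with quantile scaling and 0.113 with libraries 1 and 2. In mock siBOP1 cells, BST2 was -0.171 with the column number block, -0.0618 with libraries 1 and 2 and -0.358 with the replicate block, and IFITM3 0.0242 with libraries 1 and 2.

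Leaving out 1 library in turn, 21 further uncalled values kept their sign but moved by over 1.5 times, among them for IFITM1 the interaction at 12 h (-0.35, range -0.796 to -0.0219) and the siRNA difference at 12 h in mock (0.88, range 0.549 to 1.32) and IFN cells (0.53, range 0.194 to 0.771). Values that changed sign ranged as follows. The interaction at 8 h was -0.104 to 0.097 for IFITM2 and -0.113 to 0.148 for IFITM3, and at 12 h -0.0969 to 0.246 for IFITM2, -0.239 to 0.0813 for IFITM3 and -0.174 to 0.347 for BST2. Time in mock siFLuc cells was -0.202 to 0.592 for IFITM1, -0.0247 to 0.115 for IFITM2, -0.132 to 0.0861 for IFITM3 and -0.268 to 0.202 for BST2, and in mock siBOP1 cells -0.409 to 0.0903 for IFITM1, -0.0572 to 0.0318 for IFITM3 and -0.177 to 0.289 for BST2. The siRNA difference of BST2 in mock cells was -0.0981 to 0.296 at 8 h and -0.0641 to 0.457 at 12 h.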
